A study of Mus musculus with 9 samples.

Results

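The insulin-like growth factor (IGF) system of islets is described here through 10 genes picked by name: the pappalysin genes Pappa2 and Pappa, the IGF binding protein genes Igfbp2, Igfbp3, Igfbp4, Igfbp5 and Igfbp7, the ligand gene Igf1, and the receptor genes Igf1r and Insr. All 10 had their own row among the 25611 rows of the count table, and 9 of the 10 had enough counts to be tested, as did 14529 genes in all. The genes were brought together with their levels in both groups already known, so the values and calls below describe them and are not evidence for the choice. Pancreatic islets were hand-picked from 4-week-old mice, 4 of them controls with the conditional Glis3fl/fl alleles and no driver, and 3 labelled knockout with the same alleles and Pdx1-Cre, which is active in the pancreatic epithelial lineage. No mice with Pdx1-Cre alone were measured, so an effect of the driver and one of the deletion cannot be told apart. Binding of the zinc finger factor Glis3 was mapped with an antibody against GFP in islets of Glis3-eGFP animals aged 8 weeks, as 1 list of 21254 peaks without a replicate.

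IGFs are growth factors that act through the receptor tyrosine kinase encoded by Igf1r and, in part, through the insulin receptor. In tissue fluid they are held by binding proteins, which keep them from the receptors until a protease cuts the binding protein. Pappalysins are metalloproteases with this role: Pappa2 cleaves mainly Igfbp3 and Igfbp5, Pappa cleaves mainly Igfbp4, and the stanniocalcins Stc1 and Stc2 inhibit both enzymes. In beta cells, signalling through Igf1r and Insr has been tied to growth, survival and secretion.

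Levels are given as CPM, the counts of a gene scaled to a common library total with TMM factors, from totals of 12099365 to 48054551 counts per library. They compare libraries for 1 gene and not genes with each other, since the table gives no transcript lengths. The row of the targeted gene covers the whole gene, and the labels do not say which part is deleted, so it cannot check the deletion: Glis3 stood at 39.53, 46.77, 31.23 and 33.55 CPM across the control libraries, and labelled knockouts 1 to 3 read 52.05, 52.74 and 57.75 CPM, higher in the libraries labelled knockout (log2 fold change 0.52, SE 0.14, edgeR adjusted p = 0.0257). Of all genes tested, 14.0% were called at an edgeR adjusted p under 0.05, 8.73% higher and 5.25% lower. Islet identity was plain in the counts, as 10 beta cell markers summed to 330000 to 551000 CPM in controls and to 189000 to 300000 CPM in labelled knockouts. The largest terms moved in opposite directions. Mean CPM fell from 129000 to 52100 for Ins1 and from 272000 to 90300 for Ins2, and rose from 24000 to 85900 for Iapp. In bulk islets, fewer cells of a type and less RNA per cell cannot be told apart.

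The 250 bases before the start of 5 of these genes are shown because they set the called genes (Pappa2, Igfbp4 and Igf1r) beside Igfbp7, which has a Glis3 peak at its start, and Igfbp3, which has none nearby. Sequences are from RefSeq on build GRCm38.p6, 5′ to 3′ on the strand of the gene, and capitals mark CG dinucleotides. The windows are chr1:158958176-158958425 on the minus strand for Pappa2, chr11:99040994-99041243 on the plus strand for Igfbp4, chr7:67952007-67952256 on the plus strand for Igf1r, chr5:77408046-77408295 on the minus strand for Igfbp7 and chr11:7213924-7214173 on the minus strand for Igfbp3.
Pappa2: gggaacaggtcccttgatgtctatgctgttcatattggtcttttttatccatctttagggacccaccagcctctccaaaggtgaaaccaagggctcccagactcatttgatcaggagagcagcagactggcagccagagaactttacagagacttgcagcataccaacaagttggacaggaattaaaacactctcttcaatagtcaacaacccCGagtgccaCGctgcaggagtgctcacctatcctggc
Igfbp4: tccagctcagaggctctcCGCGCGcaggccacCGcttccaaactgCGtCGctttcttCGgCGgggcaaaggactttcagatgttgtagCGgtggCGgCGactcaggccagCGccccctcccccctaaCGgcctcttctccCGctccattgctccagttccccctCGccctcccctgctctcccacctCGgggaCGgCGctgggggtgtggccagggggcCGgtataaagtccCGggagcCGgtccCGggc
Igf1r: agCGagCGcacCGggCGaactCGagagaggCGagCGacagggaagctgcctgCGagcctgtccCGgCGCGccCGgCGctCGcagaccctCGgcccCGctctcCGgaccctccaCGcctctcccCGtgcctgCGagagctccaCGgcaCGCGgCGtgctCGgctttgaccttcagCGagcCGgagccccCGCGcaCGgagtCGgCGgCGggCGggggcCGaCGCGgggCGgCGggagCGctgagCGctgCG
Igfbp7: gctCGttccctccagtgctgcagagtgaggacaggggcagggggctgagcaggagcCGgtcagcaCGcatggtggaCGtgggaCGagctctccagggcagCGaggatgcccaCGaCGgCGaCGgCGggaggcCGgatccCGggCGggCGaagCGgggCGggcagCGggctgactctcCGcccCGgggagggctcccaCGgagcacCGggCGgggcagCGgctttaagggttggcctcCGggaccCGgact
Igfbp3: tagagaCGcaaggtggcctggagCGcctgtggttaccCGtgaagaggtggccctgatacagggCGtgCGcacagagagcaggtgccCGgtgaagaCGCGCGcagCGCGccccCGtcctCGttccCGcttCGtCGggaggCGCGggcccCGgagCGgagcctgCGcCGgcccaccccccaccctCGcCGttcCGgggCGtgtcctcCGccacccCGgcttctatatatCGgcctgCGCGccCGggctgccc

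These promoters differed widely in base composition. The Pappa2 window held 2 CG dinucleotides at 49.2% G and C, near the median of 52.4% over 32851 RefSeq promoters of the same length, whose median number of CG dinucleotides was 6. The Igf1r window held 42 at 77.6%, that of Igfbp3 held 32 at 73.2%, that of Igfbp7 held 26 at 74.0% and that of Igfbp4 held 22 at 69.2%. A search on both strands for TGGGGGGT, letters from an element that Glis proteins are known to bind, found it in the Igfbp3 window alone among these 5, on the opposite strand and starting 79 bases before the gene, and 1.36% of all promoters held it. The shorter run TGGGGG, which lies within the longer one and was found in 24.3% of all promoters, was present in the Igfbp3 and Igfbp4 windows. The RefSeq start of Pappa2 stands at −737 bp from the 5′ end of its row in the count table (negative is upstream), so the window shown is not the one next to that row. RefSeq promoters were found for 8 of the 10 genes.

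Of the 9 tested genes, Pappa2 and Igfbp4 rose, Igf1r fell and 6 did not pass the test. That is 3 of 9, where 14.0% of all tested genes passed. The range among the 9 was wide, from a log2 fold change of −0.69 for Igf1 to 3.27 for Pappa2, with a median of 0.07 beside 0.01 over all genes tested. CPM of the groups did not overlap for 5 of them (Pappa2, Igfbp3 and Igfbp4 higher, Igf1r and Insr lower), as was true of 26.6% of all tested genes.

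**Figure D1:**
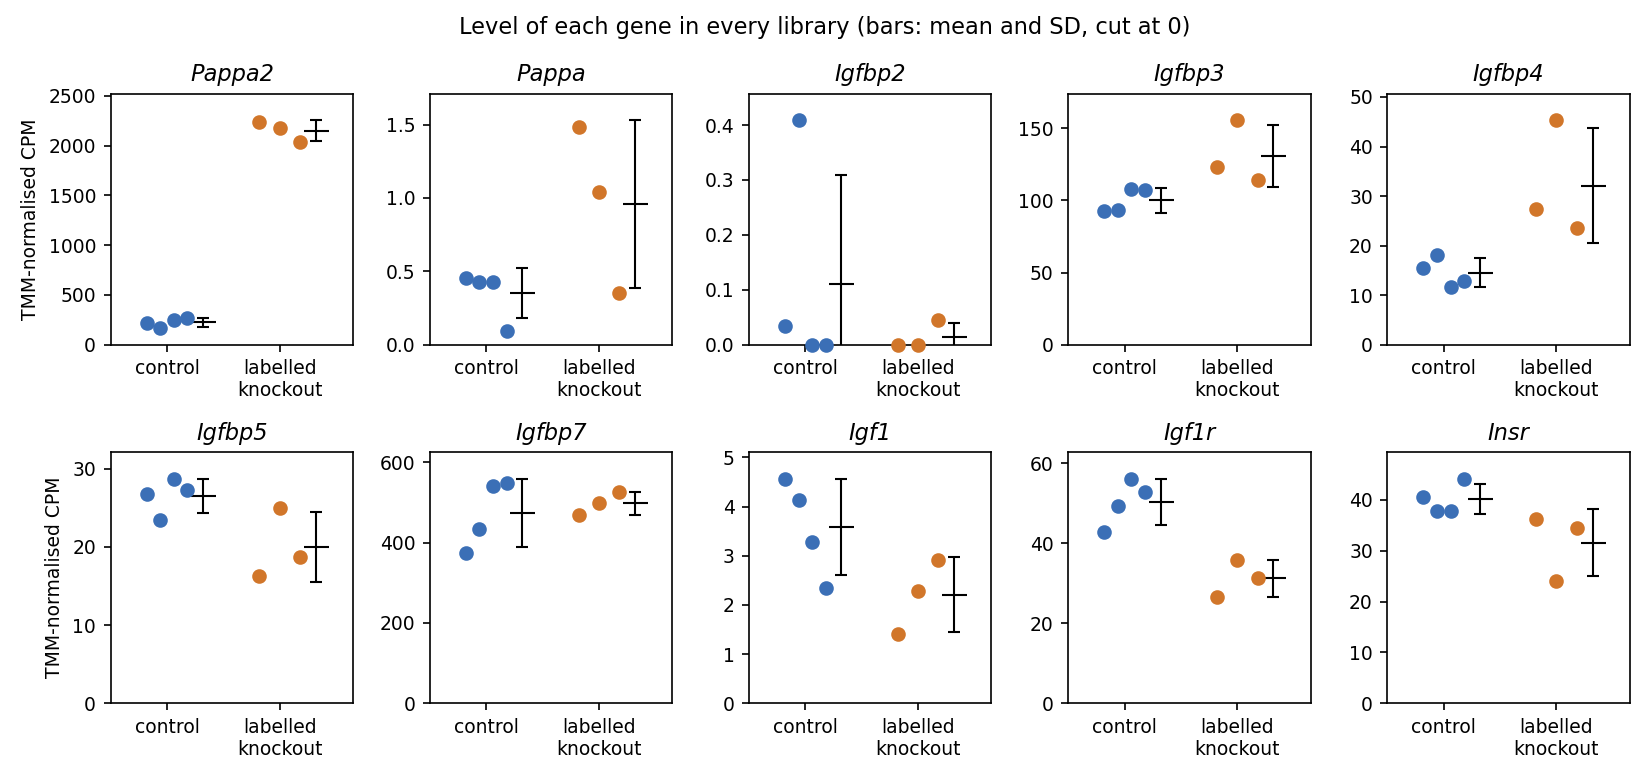
TMM-normalised CPM (vertical axes, each from 0) of the 10 genes in the 4 control libraries (blue) and the 3 labelled knockout libraries (orange), with the mean and SD of each group beside the points and bars cut at 0. Pappa2 sits at 162.6 to 268.6 CPM in controls and at 2038 to 2240 CPM in labelled knockouts, while Igfbp7 lies in the same range in both.

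Pappa2, the pappalysin that acts on Igfbp3 and Igfbp5, rose most of the members. It stood at 214.0, 162.6, 247.6 and 268.6 CPM across the control libraries, and labelled knockouts 1 to 3 read 2240, 2174 and 2038 CPM. Every labelled knockout library was thus far above every control, and the 3 lay close together (223 ± 46.3 CPM, SD, n = 4, against 2150 ± 103 CPM, SD, n = 3). The rise was 9.64-fold (log2 3.27, SE 0.16, edgeR adjusted p = 6.01e-08). Among the 14529 tested genes, Pappa2 ranked 6 by its p and 133 by the size of its log2 fold change. The rise rested on 24181 counts in controls and 126509 in labelled knockouts. Its row spans 246 kb on chromosome 1 (158711731 to 158957438, minus strand, mm10).

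Pappa, the other pappalysin and the one that cleaves Igfbp4, was near the limit of detection. Controls 1 to 4 had 0.4528, 0.4279, 0.4262 and 0.09572 CPM and labelled knockouts 1 to 3 had 1.485, 1.037 and 0.3543 CPM, from 44 and 52 counts in all. Labelled knockout 3 lay within the controls, so the groups overlapped, and the difference did not pass (log2 1.40, SE 0.80, edgeR adjusted p = 0.276). A count of 3 corresponds to 0.0583 to 0.223 CPM in these libraries.

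Pappa2 has neighbours that moved with it. Brinp2, a gene of neural cells, was the gene whose 7 values, each as log2(CPM + 0.5) minus the control mean, came closest to those of Pappa2 (root mean square difference 0.166), and it lies 355 kb away on the same chromosome. Next closest in their values were Lmo1, a LIM domain regulator (0.241, log2 fold change 3.48), and Tagln3, a neuronal transgelin (0.251, log2 fold change 3.72). Neither of these lies within 1 Mb of Pappa2. Brinp2 had 1.219, 0.9919, 1.644 and 1.627 CPM across controls 1 to 4, while the labelled knockouts in order read 18.12, 14.08 and 14.04 CPM (log2 3.52, SE 0.26, edgeR adjusted p = 1.33e-06). Since this pattern was chosen to resemble that of Pappa2, the values describe the likeness and do not test it.

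The genes around Pappa2 were then read, a window chosen after these values were seen. Within 1 Mb of its span the table lists 9 genes, Pappa2 included, of which 5 were tested. Between Brinp2 and Pappa2 lies Astn1, 19.9 kb from the Pappa2 span, which encodes the neuronal migration protein astrotactin. Astn1 had 1.602, 0.6613, 1.766 and 0.335 CPM across controls 1 to 4, while the labelled knockouts in order read 39.35, 19.52 and 21.88 CPM, with labelled knockout 1 the highest and no overlap (log2 4.67, SE 0.45, edgeR adjusted p = 4.3e-05). On the other side of Pappa2 no tested gene rose. Tnr, the tenascin R gene, fell from 25.8 ± 4.01 CPM (SD, n = 4) to 12.7 ± 2.75 CPM (SD, n = 3; log2 −1.02, SE 0.19, edgeR adjusted p = 0.00227). Rfwd2, a ubiquitin ligase gene next to Pappa2 on that side, had 32.6 ± 4.2 and 24.3 ± 1.16 CPM and did not pass (log2 −0.43, SE 0.14, edgeR adjusted p = 0.0578), but passed without control 3 (adjusted p = 0.026) and by DESeq2 (0.04). So 3 of the 5 tested genes rose, where 8.73% of all tested genes did. The 3 adjoin one another, and the next tested gene on the far side did not rise. Pappa2 and Brinp2 were picked for their levels, and the window was chosen afterwards. The count therefore describes the region and tests nothing.

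**Figure D2:**
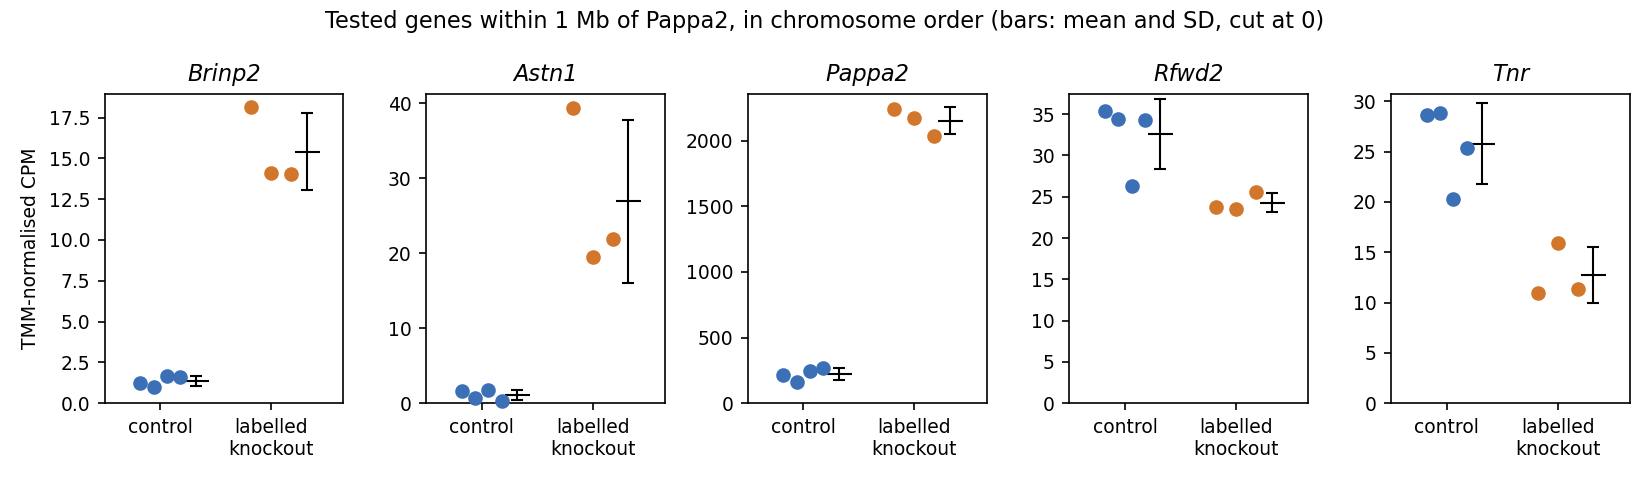
TMM-normalised CPM (vertical axes, each from 0) of the 5 tested genes within 1 Mb of Pappa2, in their order along the chromosome, in 4 control (blue) and 3 labelled knockout (orange) libraries, with mean and SD. Brinp2, Astn1 and Pappa2 are higher in all 3 labelled knockouts than in any control, and Tnr is lower in all 3.

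Igfbp4, which binds IGFs and is the classic substrate of Pappa, rose. It stood at 15.5, 18.2, 11.57 and 12.92 CPM across the control libraries, and labelled knockouts 1 to 3 read 27.32, 45.27 and 23.65 CPM. All labelled knockouts were above all controls, and labelled knockout 2 was well above the other two (14.5 ± 2.93 CPM, SD, n = 4, against 32.1 ± 11.6 CPM, SD, n = 3). The rise was 2.2-fold (log2 1.13, SE 0.22, edgeR adjusted p = 0.00356), and 0.80 on the log2 scale without labelled knockout 2 (edgeR adjusted p = 0.0183).

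Igfbp3, the main carrier of IGFs in blood and a substrate of Pappa2, had 92.34, 93.06, 107.7 and 107.3 CPM across controls 1 to 4, while the labelled knockouts in order read 123.0, 155.5 and 114.0 CPM. No library of one group reached into the other, but the distance was small beside the spread of the labelled knockouts, and the test was not passed (log2 0.39, SE 0.13, edgeR adjusted p = 0.0672). It was passed by DESeq2 (adjusted p = 0.0399) and with scaling by library size alone (edgeR adjusted p = 0.0129), and the edgeR and DESeq2 adjusted p ran from 0.0129 to 0.315 over all alternatives.

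Igfbp5, the other substrate of Pappa2, leaned the opposite way. Controls 1 to 4 had 26.72, 23.47, 28.68 and 27.28 CPM and labelled knockouts 1 to 3 had 16.26, 24.92 and 18.65 CPM. Labelled knockout 2 lay within the controls, and the gene did not pass (log2 −0.41, SE 0.16, edgeR adjusted p = 0.123). Without that library it did (log2 −0.60, edgeR adjusted p = 0.0276), with a range of 0.0276 to 0.526 over the alternatives. The counts of Igfbp4 over those of Igfbp5, a ratio within each library that no scaling can change, were 0.58, 0.775, 0.403 and 0.474 across controls 1 to 4, while the labelled knockouts in order gave 1.68, 1.82 and 1.27. The groups did not overlap in this ratio. The pair was chosen with the levels of both genes known, so the separation describes them and tests nothing. The size of the ratio does not compare the genes with each other, since transcript lengths are not given.

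Igfbp7, a secreted protein related to the binding proteins but with weak affinity for IGFs, did not separate the groups. It had 373.9, 434.3, 540.4 and 548.7 CPM across controls 1 to 4, while the labelled knockouts in order read 468.7, 499.5 and 525.1 CPM, and all labelled knockouts lay inside the range of the controls (log2 0.07, SE 0.15, edgeR adjusted p = 0.808; −0.028 without control 1). Its row shares 89 bases with that of Polr2b on the opposite strand, and the sources used here do not say whether counting used strand. Igfbp2 was barely present and was not tested. Of its 22 control counts 21 were in control 2 and 1 in control 1, and labelled knockout 3 had its single count.

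Igfbp2 and Igfbp5 are neighbours, 5.59 kb apart on chromosome 1 (72824480 to 72852471, plus strand, and 72858065 to 72874865, minus strand, mm10). Igfbp3 (chromosome 11, 7206091 to 7213923, minus strand) lies 3.54 kb from Igfbp1, a binding protein gene of liver whose 7 counts were all in control 2. In each pair 1 partner was near absent.

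Other cell types of the islet also express binding proteins, and some of their markers were higher in labelled knockouts. The 16 markers of fibroblasts, stellate cells and pericytes summed to 368 to 457 CPM in controls and to 504 to 665 CPM in labelled knockouts, with the highest sum in labelled knockout 2, the library with the most Igfbp3 and Igfbp4 and, among labelled knockouts, the most Igfbp5. Dcn, Rgs5 and Thy1 of that list rose and 13 did not pass. For this and the marker lists that follow, 8.73% of all tested genes rose and 5.25% fell. The counts of endothelial and macrophage markers that rose were near that share. Among 15 endothelial markers Ramp2 rose and 14 did not pass (842 to 948 CPM in controls, 1000 to 1240 CPM in labelled knockouts). Acinar markers, 22 in all, summed to 999 to 6200 and 3100 to 17000 CPM, again highest in labelled knockout 2, with none called. With the mean log2 CPM of the acinar markers in the fit, Igfbp4 stayed called (log2 0.84, edgeR adjusted p = 0.043), and the acinar term left Pappa2 at 3.30. The part of fibroblasts, pericytes and endothelial cells in the binding protein values was not tested. No marker in the fibroblast or endothelial lists was at 0 in all libraries. Duct markers summed to 591 to 633 CPM in controls and 1240 to 1530 CPM in labelled knockouts, with Anxa2, Epcam and Spp1 called higher of 10 tested and Onecut1 at 0 in all libraries. Macrophage markers (127 to 167 and 220 to 239 CPM, C1qa called of 11 tested) were also higher, and glial markers overlapped (35.9 to 50.5 and 34.5 to 57.1 CPM, none of 8 called). The endothelial and glial sums, too, were highest in labelled knockout 2. Those of duct, macrophage and delta cell markers were lowest there among labelled knockouts. Of 8 alpha cell markers 3 rose and 3 fell (37300 to 76000 and 46300 to 50000 CPM), of 8 delta cell markers Rbp4 and Ptprz1 rose (6130 to 9840 and 9140 to 10300 CPM), and of beta cell markers Iapp rose and 6 of 10 fell. The part of these cell types was not tested either.

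The ligand Igf1, made in most tissues by mesenchymal cells and macrophages, was low. Controls 1 to 4 had 4.563, 4.143, 3.288 and 2.345 CPM and labelled knockouts 1 to 3 had 1.411, 2.289 and 2.923 CPM. The groups overlapped and the test was not passed (log2 −0.69, SE 0.39, edgeR adjusted p = 0.269). Igf2, the other IGF ligand, had 8.34 ± 0.972 CPM (SD, n = 4) and 4.61 ± 2.81 CPM (SD, n = 3), with labelled knockout 1 lowest at 1.411 CPM. It did not pass either (log2 −0.83, SE 0.38, edgeR adjusted p = 0.175), and its row overlaps that of the antisense gene Igf2os.

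Igf1r, the IGF receptor gene, fell. It stood at 42.7, 49.4, 56.07 and 52.84 CPM across the control libraries, and labelled knockouts 1 to 3 read 26.58, 35.77 and 31.4 CPM. All labelled knockouts were below all controls (50.3 ± 5.72 CPM, SD, n = 4, against 31.2 ± 4.59 CPM, SD, n = 3). The fall was 1.6-fold (log2 −0.68, SE 0.14, edgeR adjusted p = 0.00476). With scaling on library totals only, which raises the median log2 fold change of all genes by 0.17, it was −0.50 (edgeR adjusted p = 0.0503), and over all alternatives the adjusted p ran from 0.000215 to 0.0503. The genes closest to Igf1r over the 7 libraries by the measure used for Pappa2 were R3hdm2 (root mean square difference 0.0769), Fbrsl1 (0.0803) and Tox3 (0.0813), whose log2 fold changes were −0.58, −0.71 and −0.71.

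Insr, the insulin receptor gene, had 40.61, 37.91, 37.87 and 44.13 CPM across controls 1 to 4, while the labelled knockouts in order read 36.16, 24.02 and 34.54 CPM. Labelled knockouts 1 and 3 lay just under the lowest control, labelled knockout 2 further down, and the gene did not pass (log2 −0.35, SE 0.15, edgeR adjusted p = 0.146). The counts of Igf1r over those of Insr were 1.05, 1.3, 1.48 and 1.2 across controls 1 to 4, while the labelled knockouts in order gave 0.735, 1.49 and 0.909. With labelled knockout 2 at the top of that order, the groups overlapped, so an unequal change of the receptors was not seen in every library.

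Beyond these 10 genes, 61 genes of the IGF and insulin pathway were listed by role, of which 56 were tested, 4 rose, 9 fell and 43 did not pass, where 8.73% of all tested genes rose and 5.25% fell. Their median log2 fold change was −0.16, beside 0.01 over all genes tested. Scaled by library size alone, 4 rose and 2 fell, where all genes went from 1268 higher and 763 lower to 1854 higher and 324 lower. The lists were written with earlier results of these data known.

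Among 15 genes listed as IGF ligands, binding proteins and their regulators, 3 of the 11 tested rose, 1 fell and 7 did not pass. Of all tested genes, 8.73% rose and 5.25% fell. Both stanniocalcin genes, whose products inhibit pappalysins, were among those that rose. Stc2 had 0.1393, 0.05835, 0 and 0.1914 CPM in controls 1 to 4, from 11 counts, against 1.262, 4.276 and 0.5757 CPM in labelled knockouts 1 to 3, from 129 counts (log2 4.33, SE 0.92, edgeR adjusted p = 0.00614). Stc1 had 7.141, 7.702, 3.47 and 4.547 CPM across controls 1 to 4, while the labelled knockouts in order read 10.17, 14.3 and 11.03 CPM (log2 1.03, SE 0.28, edgeR adjusted p = 0.0227). For both genes every labelled knockout was above every control, with labelled knockout 2 the highest. Without that library Stc2 was at 3.15 on the log2 scale (edgeR adjusted p = 0.0834) and Stc1 at 0.87 (0.0875). Stc1 also lost its call without control 3 (0.0579), control 4 (0.0671) or labelled knockout 3 (0.0581), and both lost it with the acinar term (0.137 for Stc1 and 0.0813 for Stc2). Over all alternatives the adjusted p ran from 0.0064 to 0.137 for Stc1 and from 4.07e-05 to 0.0834 for Stc2.

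Ghr, the growth hormone receptor gene, whose signal drives Igf1 in liver, rose from 137 ± 7.19 CPM (SD, n = 4) to 244 ± 21.6 CPM (SD, n = 3), with no overlap (log2 0.83, SE 0.12, edgeR adjusted p = 2.78e-04). Igf2bp2, an RNA binding protein gene named for Igf2 mRNA, fell from 16.0 ± 4.68 CPM in controls to 8.68 ± 1.07 CPM (log2 −0.88, SE 0.24, edgeR adjusted p = 0.0266), although control 1 at 9.474 CPM lay within the labelled knockouts. That call was lost on leaving out control 2, 3 or 4, or labelled knockout 2 or 3, where the edgeR adjusted p was 0.051 to 0.0871 (0.00291 to 0.0871 over the alternatives). Igfals, which joins Igfbp3 and an IGF in a complex in blood (54.3 ± 8.89 and 57.3 ± 15.6 CPM, log2 0.08), and the endothelial proteoglycan gene Esm1 (43.1 ± 8.7 and 37.5 ± 9.48 CPM, log2 −0.21) did not pass. The sign for Igfals turned without control 1 or labelled knockout 2 and with the acinar term.

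Of 20 receptors and adaptors, 19 were tested, 1 rose, 4 fell and 14 did not pass (8.73% and 5.25% of all tested genes rose and fell), with a median log2 fold change of −0.31. Insrr encodes the insulin receptor-related receptor, an alkali sensor of the same family as Igf1r and Insr. It stood at 430.8, 426.8, 341.1 and 351.5 CPM across the control libraries, and labelled knockouts 1 to 3 read 155.6, 102.0 and 147.3 CPM, with no overlap (2.87-fold lower, log2 −1.52, SE 0.17, edgeR adjusted p = 3.12e-05). Of the 3 receptor genes of this family, then, Insrr and Igf1r fell and Insr did not pass.

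Enpp1, a pyrophosphatase reported to inhibit the insulin receptor, rose from 1.55 ± 0.21 CPM in controls to 7.82 ± 2.35 CPM (log2 2.32, SE 0.32, edgeR adjusted p = 2.26e-04), with 1.279 to 1.789 CPM in controls and 5.447 to 10.15 CPM in labelled knockouts. Grb10, an adaptor that binds both receptors and dampens their signal, fell from 64.7 ± 3.38 CPM in controls to 37.3 ± 3.56 CPM, without overlap (log2 −0.79, SE 0.11, edgeR adjusted p = 3.80e-04). The related adaptor gene Grb14 (log2 −0.47, SE 0.14, edgeR adjusted p = 0.0371) and Shc1, which links receptors to Ras (log2 −0.54, SE 0.14, edgeR adjusted p = 0.0222), also fell. Grb14 stayed called among the leave-out fits only without control 3, with adjusted p of 0.0575 to 0.103 in the other 6 (0.019 to 0.323 over the alternatives). Shc1 lost its call without control 3 (0.0639) or labelled knockout 1 (0.0907; 0.00444 to 0.154 over the alternatives). Igf2r, which clears Igf2 (53.3 ± 6.18 and 58.5 ± 4.32 CPM, log2 0.13, with an antisense row, Airn, over part of it), Grb2 (72.2 ± 6.19 and 66.4 ± 3.6 CPM, log2 −0.12, and 0.055 scaled by library size alone) and the phosphatase gene Ptpn1 (61.06 to 65.76 CPM in controls, 38.17 to 59.61 CPM in the others, log2 −0.32) did not pass.

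Downstream, all 26 genes of PI3K, AKT, FOXO and mTOR signalling were tested, and 4 fell (5.25% of all tested genes), none rose (8.73%) and 22 did not pass, with a median log2 fold change of −0.16. The 4 were kinases or their partners: Pdpk1, which activates AKT (45.2 ± 7.77 CPM in controls and 27.5 ± 3.37 CPM in the others, log2 −0.72, SE 0.15, edgeR adjusted p = 0.0066), Rictor of mTOR complex 2 (23.7 ± 0.991 to 14.8 ± 3.14 CPM, log2 −0.67, SE 0.17, adjusted p = 0.0159), Akt2 (64.7 ± 4.26 to 46.6 ± 2.49 CPM, log2 −0.48, SE 0.11, adjusted p = 0.0104) and Akt1 (128 ± 5.58 to 99.5 ± 8.61 CPM, log2 −0.36, SE 0.11, adjusted p = 0.0486). In each of these, all labelled knockouts lay below all controls. Akt1 kept its call among the leave-out fits only without labelled knockout 2 (adjusted p from 0.0533 to 0.138 in the other 6, and 0.0105 to 0.488 over the alternatives). None of the 4 was called when scaled by library size alone (adjusted p from 0.068 to 0.488). Rheb (72.2 ± 7.28 and 81.3 ± 9.49 CPM, log2 0.17), the transcription factor gene Foxo1 (68.0 ± 3.41 and 69.6 ± 4.74 CPM, log2 0.04) and Tsc2 (70.1 ± 10.9 and 70.4 ± 9.01 CPM, log2 0.01, with Pkd1 overlapping it) did not pass, and the signs for Foxo1 and Tsc2 turned in several alternatives.

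**Figure D3:**
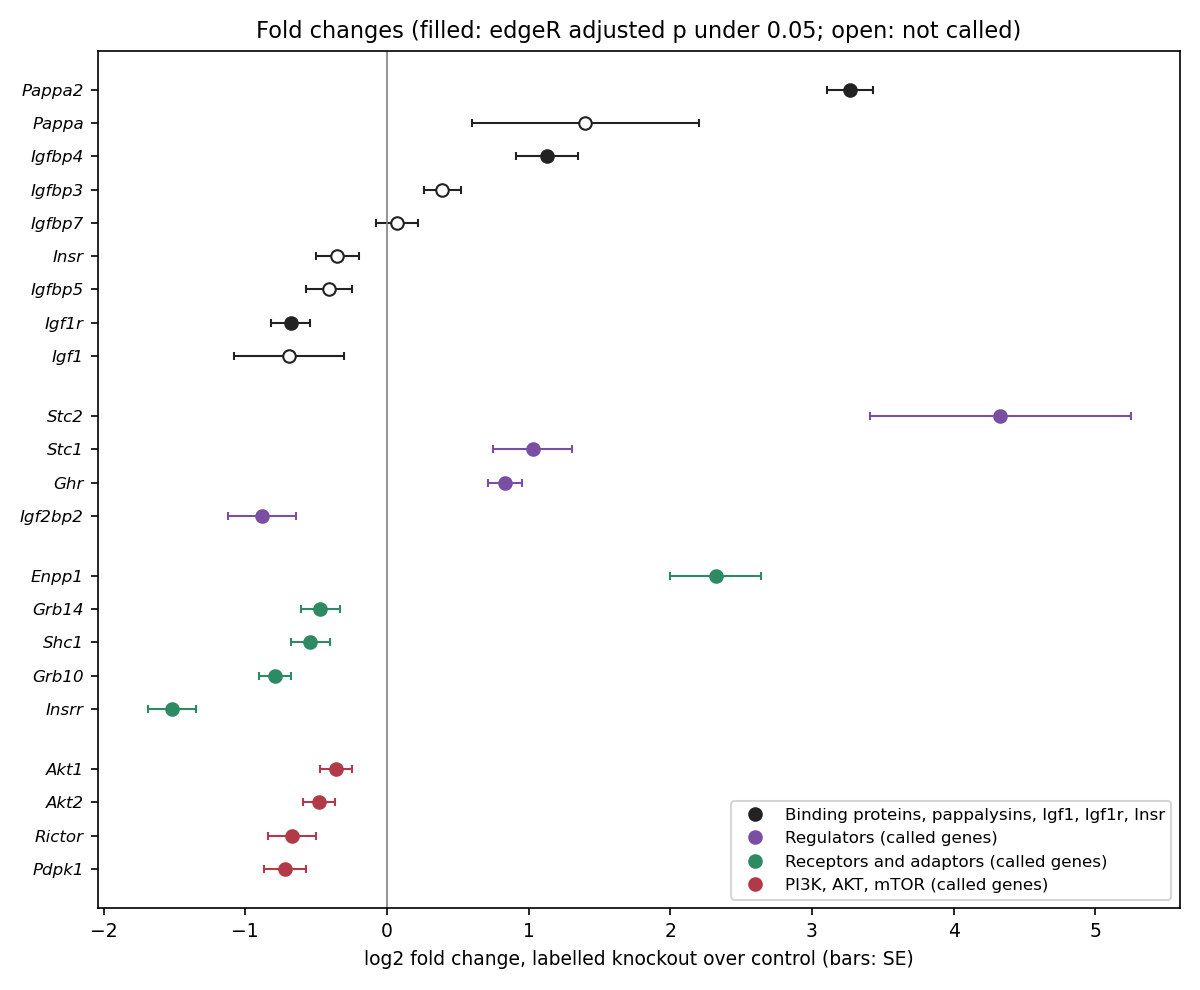
Log2 fold change of labelled knockout over control (horizontal axis) with its SE for the 9 tested genes of the set and for the 13 called genes of the 3 pathway lists. Filled points passed an edgeR adjusted p under 0.05 and open points did not. Pappa2 at 3.27 and Stc2 at 4.33 lie farthest to the right, and Insrr at −1.52 lies farthest to the left.

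Glis3 peaks lay within 50 kb of the spans of 8 of the 10 genes, beside 93.7% of all tested genes. Peaks were 200 bp wide and carried no score, so they are given by position alone. Counting from the 5′ end, 8 of the 10 had one within 50 kb (91.1% of all tested genes). Within 10 kb of the span it was 6 of the 10 (85.8%) and within 100 kb 9 of the 10 (96.4%). All 4 members with spans of at least 100 kb had one within 50 kb, as did 92.4% of the 1904 tested genes of that length. Within 10 kb of the 5′ end, 5 of the 10 had a peak (80.5% of all tested genes), and within 1 kb 4 of the 10 did (71.2%).

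Those 4 were Igf1r, Insr, Igfbp7 and Pappa. Igf1r, which fell, had a peak centred 144 bp after its 5′ end (chr7:67952302-67952501), outside the promoter window printed above, and a second centred 1260 bp before it (chr7:67950898-67951097). Insr had a peak centred 205 bp after its 5′ end (chr8:3279313-3279512) and another 58.4 kb into the gene. Igfbp7, whose levels overlapped between groups, had a peak centred 52 bp after its 5′ end (chr5:77407894-77408093), which covers the last 48 bases of the window printed above, and 3 more inside the gene. Pappa had a peak centred 815 bp after its 5′ end (chr4:65124890-65125089). The other 2 called genes of the set had none so close.

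The nearest peak to Pappa2 was 26.3 kb downstream of its 5′ end, inside the gene (chr1:158931020-158931219), and 27.1 kb from its RefSeq start. The next was 44.8 kb upstream (chr1:159002184-159002383). Brinp2, in contrast, had a peak 113 bp after its 5′ end, and that of Astn1 stood at −6157 bp. Igfbp4 had no peak within 50 kb, the nearest being 58.8 kb upstream, and the nearest to Igfbp3 was centred 313 kb after its 5′ end. Igfbp2 and Igfbp5 share 1 peak (chr1:72871143-72871342), 3.62 kb into Igfbp5 and 18.8 kb past the end of Igfbp2, so it counts for both. The peak nearest Igf1 lay 45.5 kb upstream.

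**Figure D4:**
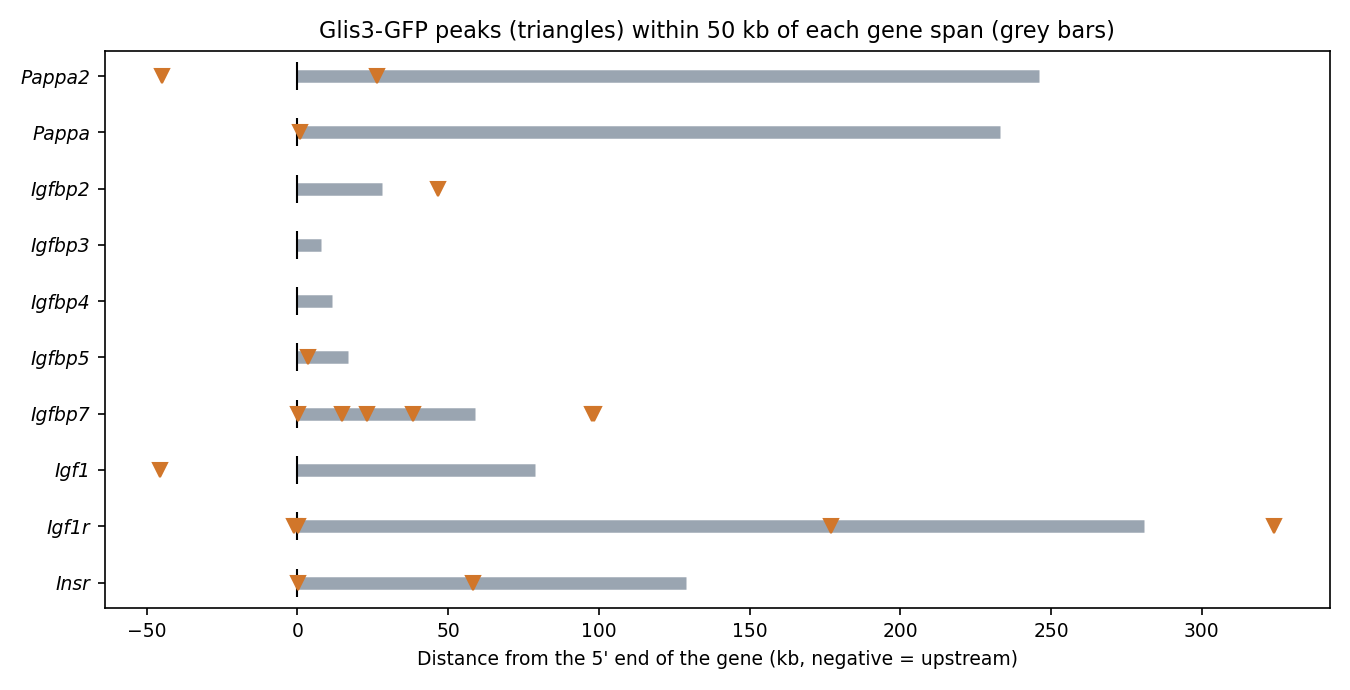
Positions of Glis3-GFP peaks (orange triangles) within 50 kb of the span of each gene (grey bars), as distance in kb from the 5′ end (black tick), with upstream negative. Igf1r, Insr, Igfbp7 and Pappa have a peak at the 5′ end, Pappa2 has its nearest 26.3 kb inside the gene, and Igfbp3 and Igfbp4 have none.

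In the pathway lists, within 10 kb of the 5′ end there was a peak for 8 of the 9 genes that fell, 2 of the 4 that rose and 37 of the 43 that did not pass, beside 80.5% of all tested genes. Ghr and Enpp1 were the genes that rose with such a peak. Stc1 and Stc2 had none within 50 kb of their spans, as was the case for Igfbp4 and Igfbp3. The same held for Esm1, which, like Igfbp3, did not pass (log2 −0.21 for Esm1). Of all tested genes, 93.7% had a peak within 50 kb of the span. The windows rich in G and C printed above include those of Igfbp7 and Igf1r, with a peak at the start, and those of Igfbp3 and Igfbp4, without one.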

How the data were processed

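RNA sequencing libraries of islets from 4 control and 3 labelled knockout mice were compared, with 1 Glis3-GFP peak list; the input library was not used here. Raw whole-number counts per gene, with the coordinates of each row, were deposited by the authors, per the file headers. The submitters' processing notes name the build mm10 and, among other tools, STAR 2.5, featureCounts 1.5.0-p1, Bowtie 1.2 and HOMER 4.9.1, without settings.

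Genes passing filterByExpr (14529) were compared with edgeR 4.0.16 (TMM, robust quasi-likelihood F test, 2-sided, R 4.3.3), with Benjamini-Hochberg adjustment over all of them, which the term adjusted p means unless DESeq2 1.42.0 is named. For SE, the log2 fold change was taken over the root of its F statistic. Per the series' design text, libraries came from separate mice; chi-square per degree of freedom between libraries of a group was 23.4 to 95.4, so none were copies. The fit was tested on simulated data.

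The members, lists and tests were chosen with earlier results of these data known. The text names all members, called pathway genes, the 3 highest uncalled per pathway list and the 3 genes closest to Pappa2 and to Igf1r (mean of at least 1 CPM); Astn1, Rfwd2 and Tnr and the marker genes named were chosen after their values were seen. Peak midpoints were set against the gene spans and 5′ ends of the count table. Promoter sequences came from a RefSeq table, and no whole genome was used. Alternatives were other scaling, no filter, DESeq2, an acinar covariate, a replicate block, leaving out each library, and other peak windows. The limit of 3 counts per library reflects counting error alone.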

Additional observations from a re-analysis of the deposited data

Results flagged for a closer look

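In 4 of 41 genes named or read around Pappa2, the spread of the 4 controls was dominated by 1 library, where chance gives about 1 group in 20. Pappa was at 0.09572 CPM (2 counts) in control 4, well under the other controls. Igfbp2 was at 0.4084 CPM in control 2, which held 21 of the 22 control counts. Lmo1, one of the genes closest to Pappa2, was at 3.159 CPM in control 4, above 2.07 to 2.237 CPM in the other controls. Rfwd2 was at 26.36 CPM in control 3, below the 34.32 to 35.39 CPM of the other controls and close to the highest labelled knockout.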

How the results depend on the processing

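Of the 3 called members, Pappa2 and Igfbp4 passed in every alternative run (log2 3.14 to 3.47 and 0.80 to 1.30), and Igf1r in all but scaling by library size alone. Members lower then numbered 0, and 1 to 2 when 1 library was left out. Of the 61 pathway genes, 6 passed with library size alone (2 lower) and 8 with the acinar covariate (2 higher), and 9 to 12 (2 to 5 of them higher) when 1 library was left out, against 13 (4 higher). Members with a peak within 50 kb of the 5′ end numbered 8, against 5 within 10 kb.

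With the replicate block, 3 members and 10 pathway genes were called; Igf2bp2, Grb14 and Akt1 were not. Deviations of same-numbered libraries correlated at 0.126, 0.08 and 0.092. Labelled knockouts 1 and 2 correlated most with the control of the same number, and labelled knockout 3 with control 4 (0.124). The remaining pairs ran from −0.139 to 0.0291. Whether the numbers mark pairs was not tested. The main fit took no pairs, and the replicate block is given as an alternative.

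Over 40 genes and their alternatives (519 values), 459 kept direction and call, 43 lost a call, 5 gained one and 12 turned sign. The last were all in uncalled genes near 0: Igfbp7 (−0.028 to 0.13 when 1 library was left out), Igfals (−0.14 to 0.25; −0.11 with the acinar covariate), Grb2 (0.055 with library size alone), Foxo1 (−0.02 to 0.077; −0.019 with the acinar covariate) and Tsc2 (−0.1 to 0.08; −0.064 with the acinar covariate and −0.0049 with no filter). The cause was not tested. Pappa could not be fitted without control 1, since it then fell below the filter, and Igfbp2 has no fitted value here. Igfbp2 and Igfbp1 were not tested, and low counts limit the precision for Pappa.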
